A study of Rattus norvegicus with 138 samples.

Results

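The genes described here belong to the response to the adrenal steroid hormones, and they were read in brainstem punches of hypertensive and normotensive female rats. A list of 9 genes was chosen by name, without a cutoff on any measured value. Of these, 8 were found among the 32883 genes of the tables, namely Nr3c2, Hsd11b1, Sgk1, Fkbp5, Tsc22d3, Errfi1, Zbtb16 and Pdk4. Nr3c1, the gene of the glucocorticoid receptor, was not analysed here.

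RNA of 46 rats was sequenced from 3 regions, namely the nucleus of the solitary tract (or NTS), the caudal ventrolateral medulla (CVLM) and the rostral ventrolateral medulla (RVLM), to follow expression while hypertension develops. The rats were 28 spontaneously hypertensive rats (SHR/NHsd, called SHRs), an inbred strain whose blood pressure rises with age, and 18 Wistar-Kyoto rats (WKY/NHsd), the normotensive strain used as its control. There were 5 WKY rats and 5 SHRs aged 8 wk, 4 and 5 aged 10 wk, and 3 and 6 at each of 12, 16 and 24 wk. All were female, came from Envigo, were housed singly and carried no engineered allele, and no drug or hormone treatment is named. They were anesthetized with isoflurane before decapitation, and punches of 1 mm from both sides were joined, so that each rat gave 1 library per region. Blood pressure was taken with a tail cuff in the rats of 12 and 24 wk. The time of day at which rats were killed and the phase of the estrous cycle are not given in the sources used here. Replicates are separate rats, and the 3 regions of a rat are not independent of each other. A punch holds all cell types of its region.

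Corticosterone, the main glucocorticoid of the rat, and aldosterone, its main mineralocorticoid, enter cells and bind receptors of the nuclear receptor family. The bound receptor moves to the nucleus and changes the transcription of target genes, some of them soon after a stressor and some with the daily rhythm of the hormone. The mineralocorticoid receptor binds corticosterone with high affinity, and the glucocorticoid receptor binds it with lower affinity. In the hindbrain, these hormones act in the NTS and ventrolateral medulla on the reflex control of blood pressure. Of the genes here, Nr3c2 encodes the mineralocorticoid receptor, and Hsd11b1 encodes the enzyme that regenerates active glucocorticoid inside cells. Sgk1, Fkbp5, Tsc22d3, Errfi1, Zbtb16 and Pdk4 are genes that glucocorticoids induce in many cell types.

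Total counts per library ran from 5904581 to 17889417, with medians of 9970392, 10009218 and 10335125 (NTS, CVLM and RVLM). All 8 members passed the filter on low values in every region, with 13793, 13408 and 13411 genes tested. Levels are CPM, the reads of a gene scaled to a common library size with TMM factors, and differences are log2 fold changes of SHRs against WKY rats from edgeR's quasi-likelihood test, called at an adjusted p under 0.05 over all genes of a region. The catecholamine genes Th and Dbh had NTS medians of 148 and 73.6 CPM, CVLM medians of 137 and 82.4 and RVLM medians of 50.7 and 9.01, and the forebrain gene Emx1 had a median of 0 in each region. Neurod6, listed as a forebrain gene, had a median of 26.2 CPM in the CVLM. In the RVLM, 1 library stood apart, that of the third WKY rat of 8 wk (TMM factor 0.797, correlation with the median library of the region 0.924). Library names end in the number 1 or 2. The number 2 marks 14 rats, namely all rats of 10 wk, 3 of the 5 WKY rats of 8 wk, and 1 SHR each of 12 and 24 wk. What the number stands for is not given in the sources used here, and at 10 wk it cannot be told apart from age. Depth went with the number, with total counts of 9489481 to 17889417 for number 2 and 5904581 to 11920643 for number 1.

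The promoters of 3 members are shown because expression of Sgk1 rose and fell with that of Errfi1 and Pdk4 from rat to rat in every region, as described further on. The 250 bases before a RefSeq transcript start on the rat assembly GRCr8 are given, 5′ to 3′ on the strand of the gene, with TATAAA in capitals. For Sgk1, this is the start at chr1:24804832-24805081 (minus strand), the third of 3 starts in RefSeq. Errfi1 is at chr5:166606591-166606840 (plus strand) and Pdk4 at chr4:34568330-34568579 (minus strand).
Sgk1: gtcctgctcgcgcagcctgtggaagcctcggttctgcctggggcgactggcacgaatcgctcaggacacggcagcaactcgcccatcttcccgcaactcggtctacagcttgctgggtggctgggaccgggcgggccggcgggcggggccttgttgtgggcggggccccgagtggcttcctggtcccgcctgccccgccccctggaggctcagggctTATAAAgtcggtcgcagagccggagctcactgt
Errfi1: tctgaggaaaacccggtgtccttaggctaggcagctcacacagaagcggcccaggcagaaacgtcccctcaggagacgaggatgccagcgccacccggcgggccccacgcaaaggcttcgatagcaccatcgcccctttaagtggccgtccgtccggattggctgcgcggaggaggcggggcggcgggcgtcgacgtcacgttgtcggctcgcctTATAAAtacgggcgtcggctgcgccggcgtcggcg
Pdk4: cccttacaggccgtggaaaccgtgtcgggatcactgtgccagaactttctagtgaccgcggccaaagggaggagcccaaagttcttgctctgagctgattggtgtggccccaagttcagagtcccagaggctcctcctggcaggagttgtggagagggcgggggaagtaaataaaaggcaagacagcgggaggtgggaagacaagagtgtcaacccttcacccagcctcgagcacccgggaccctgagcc
The box TATAAA began 33 bases before the Sgk1 start and 35 bases before the Errfi1 start, and it was absent from the Pdk4 window on this strand. Over the windows of 250 bases before to 50 after a start, 4 of the 9 starts of 5 members held it, where 8.8% of 33469 rat promoters did. The other starts with it were another one of Sgk1 and one of Tsc22d3. One arm of the glucocorticoid response element (AGAACA or TGTTCT, which covers both strands) was in 0 of the 9 windows, against 20.7% of all promoters, and both arms with 3 bases between (AGAACA, 3 bases, TGTTCT) in 0 of 9, against 0.0149%. No start was listed for Nr3c2, Hsd11b1 and Zbtb16. The genome is that of the RefSeq reference and not of either strain.

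Between the strains, Hsd11b1 was lower in SHRs in the CVLM and the RVLM, and these calls, averaged over ages, held in every other fit at the same threshold. Averaged over the 5 ages, 3 of the 24 values of 8 genes in 3 regions were called, where 11.4% of all genes were, and all 3 were lower in SHRs. These were Hsd11b1 in both ventrolateral regions and Errfi1 in the RVLM. At single ages, 8 of 120 values were called, where 3.87% of all values were. Of these 8, 7 were lower in SHRs, and 5 of the 8 were at 8 wk. Over all genes, 8 wk also had the highest share of calls in each region (5.79%, 7.64% and 9.78% in the NTS, CVLM and RVLM). At an unadjusted p under 0.05 there were 28 of the 120, where 28172 of 203060 values over all genes were. DESeq2 called 12 of the 120, and the share of all genes that it called is not given here. The other comparisons at 1 age are those in which edgeR called no member, so their lack of calls follows from how they were picked. Of their 72 values, 10 had an unadjusted p under 0.05 and DESeq2 called 1. For the NTS these were 12, 16 and 24 wk, where 3.10%, 1.73% and 2.46% of genes were called. For the CVLM they were 12 and 16 wk (2.62% and 2.27%), and for the RVLM 10, 12, 16 and 24 wk (2.30%, 1.70%, 1.65% and 2.24%). The strains did not overlap in 8 of the 120 values, described with each gene, where 6.22% of all values did not. All members overlapped in NTS libraries of 12, 16 and 24 wk, where 5.70%, 6.48% and 6.33% of genes did not. They also did so in CVLM libraries of 8 and 12 wk (4.68% and 5.21%) and RVLM libraries of 8 and 10 wk (4.91% and 5.98%).

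**Figure D1:**
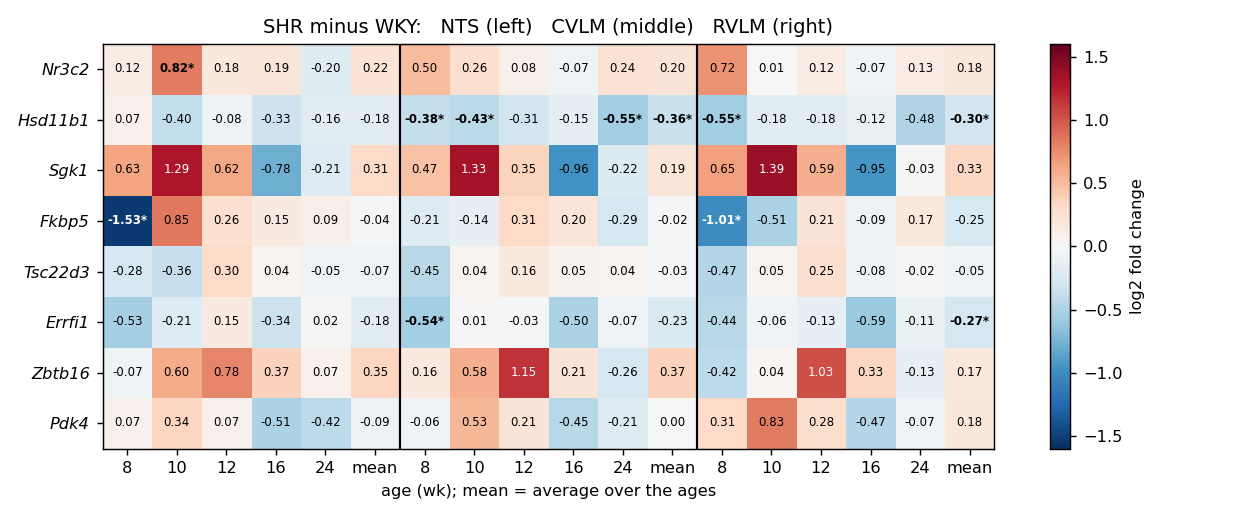
Log2 fold changes of SHRs against WKY rats for the 8 members (rows) at each age in wk and averaged over ages (columns), in the NTS, CVLM and RVLM from left to right. Red is higher and blue lower in SHRs, and bold values with a star had an adjusted p under 0.05. Hsd11b1 is blue at every age of the CVLM, and Sgk1 goes from 1.29 to 1.39 at 10 wk to -0.78 to -0.96 at 16 wk, with none of these Sgk1 values called.

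The mineralocorticoid receptor gene Nr3c2 was higher in SHRs in the NTS at 10 wk. The 4 WKY rats had 6.40, 6.79, 8.64 and 7.03 CPM, and the 5 SHRs had 9.25, 15.5, 17.1, 8.29 and 13.6. The highest WKY rat lay between the lowest SHR and the others, so that the groups overlapped by 1 rat. The log2 fold change was 0.82 (SE 0.20, adjusted p = 0.0111), where 4.44% of genes were called at this age in the NTS. With each age fitted alone the call was lost (adjusted p = 0.0798), and it was lost without WKY replicate 1 (0.0557) or SHR replicate 3 (0.0652) of 10 wk. In bulk tissue, more cells that express a gene and more RNA per cell cannot be told apart.

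At the other ages the NTS values of Nr3c2 overlapped between strains, with log2 fold changes from -0.20 at 24 wk to 0.19 at 16 wk. Its values were lowest at 10 wk in WKY rats, and over ages Nr3c2 changed in the NTS of WKY rats (adjusted p = 0.0290). In the CVLM and RVLM no age was called. There, the 5 WKY rats of 8 wk had 17.3, 9.43, 8.35, 9.45 and 8.56 CPM in the CVLM, against 16.8, 16.7, 12.0, 14.1 and 15.5 in SHRs. All WKY rats but 1 lay below every SHR in that comparison, and the adjusted p was 0.205. In the RVLM of 8 wk, the library that stood apart had 0.53 CPM of Nr3c2, and the other 4 WKY rats had 12.0 to 19.0. Averaged over ages, the log2 fold changes were 0.22 (SE 0.093), 0.20 (0.117) and 0.18 (0.153) in the NTS, CVLM and RVLM, with adjusted p values of 0.131, 0.315 and 0.543.

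Hsd11b1, which encodes 11β-hydroxysteroid dehydrogenase type 1, had the clearest strain difference. In the CVLM, WKY rats ran from 43.9 to 78.3 CPM with a median of 68.3 (mean 64.8 ± 10.3 SD, n = 18), and SHRs ran from 35.8 to 64.8 with a median of 49.8 (49.8 ± 6.14, n = 28). The median WKY rat was above every SHR. The log2 fold change averaged over ages was -0.36 (SE 0.057, adjusted p = 4.5e-06), and it lay from -0.40 to -0.33 when each rat was left out in turn. With the name number as a term it was -0.35 (adjusted p = 5.7e-06).

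In the RVLM, Hsd11b1 was at 85.9 to 221 CPM in WKY rats (median 143, mean 148 ± 31.3, n = 18) and at 67.8 to 172 in SHRs (median 114, mean 116 ± 23.7, n = 28). Here the strains overlapped over most of their range. The averaged log2 fold change was -0.30 (SE 0.080, adjusted p = 0.00768). The call held with each rat left out, with a highest adjusted p of 0.0239, and with the name number as a term (0.0105). In the NTS, the ranges were 26.6 to 64.1 CPM in WKY rats and 24.65 to 55.6 in SHRs, and the log2 fold change of -0.18 (SE 0.099) was not called (adjusted p = 0.293). The strain difference was not shown to differ between the NTS and the CVLM (difference of log2 fold changes 0.18, SE 0.10, adjusted p = 0.728).

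**Figure D2:**
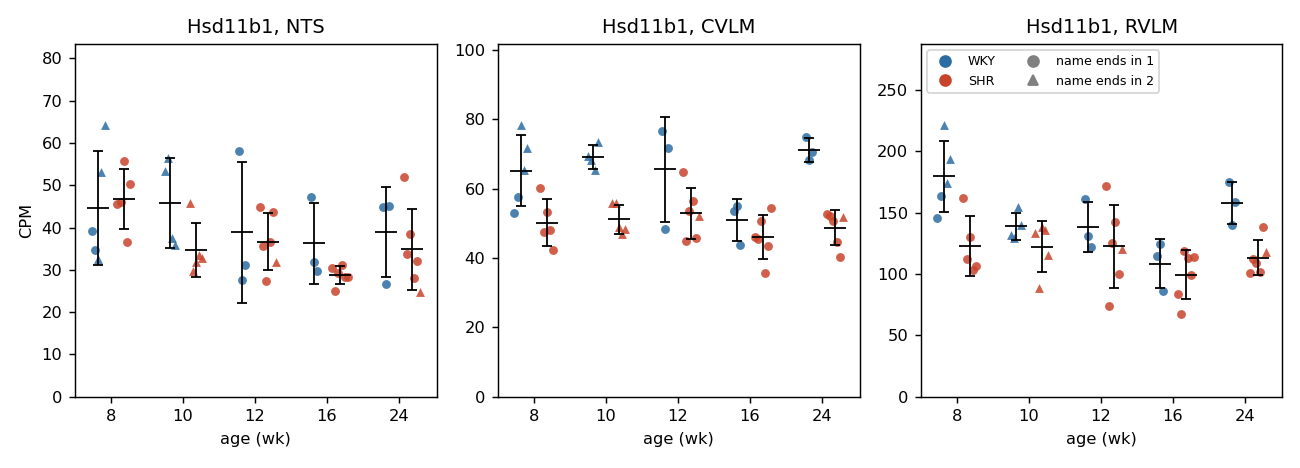
Hsd11b1 in CPM (vertical axis from 0, a scale for each region) by age in wk, in WKY rats (blue) and SHRs (red). Each point is 1 rat, triangles are libraries whose names end in 2, and black bars are the mean and SD. In the CVLM at 10 and 24 wk, all WKY rats (65.3 to 75.0) lie above all SHRs (40.4 to 55.8).

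At single ages of the CVLM, the groups were apart at 10 and 24 wk. At 10 wk, Hsd11b1 was at 69.3, 68.4, 65.3 and 73.5 CPM in WKY rats and at 55.8, 55.8, 49.0, 46.8 and 48.3 in SHRs. At 24 wk, the 3 WKY rats had 75.0, 68.3 and 70.5, and the 6 SHRs ran from 40.4 to 52.7 with a median of 51.3. At neither age did the groups overlap, which held for 6.74% and 12.2% of genes at these ages of the CVLM.

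The log2 fold change of Hsd11b1 in the CVLM was -0.43 at 10 wk (SE 0.125, adjusted p = 0.0399, where 3.18% of genes were called) and -0.55 at 24 wk (SE 0.130, adjusted p = 0.00623, where 7.13% were). The first call was lost without a filter on low counts and in 9 of 46 fits that left out a rat (highest adjusted p 0.135). The second was lost only without WKY replicate 1 of 24 wk (0.0713). At 8 wk, WKY rats had 52.9, 57.7, 78.3, 65.3 and 71.8 CPM and SHRs 60.1, 47.4, 53.2, 48.1 and 42.4, with the 3 highest values in the WKY rats whose library names end in 2. The value at 8 wk was -0.38 (SE 0.119, adjusted p = 0.0424, where 7.64% of genes were called), and with the name number as a term it was -0.26 (adjusted p = 0.542). Of these libraries, WKY replicate 5 and SHR replicate 5 have labels that conflict on age, and without both the value was -0.28 and not called (adjusted p = 0.215).

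In the RVLM at 8 wk, Hsd11b1 was at 146, 163, 221, 174 and 194 CPM in WKY rats and at 162, 112, 129.9, 104 and 107 in SHRs. A single SHR reached the range of the WKY rats. The log2 fold change was -0.55 (SE 0.166, adjusted p = 0.0313, where 9.78% of genes were called), and with the name number as a term -0.44 (adjusted p = 0.263). The call was lost in 7 of 46 fits that left out a rat. The highest WKY value was in the library that stood apart, and without that rat the difference was -0.47 (adjusted p = 0.113). At 24 wk of the RVLM, WKY rats ran from 140.0 to 175 and SHRs from 101 to 139 without overlap, which held for 9.25% of genes, and the value of -0.48 was not called (adjusted p = 0.206).

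Oligodendrocyte markers moved with the CVLM difference at some ages. The summed level of 6 oligodendrocyte genes in the CVLM was 49690 to 71190 CPM in WKY rats and 49100 to 61810 in SHRs at 8 wk, 51270 to 62490 and 45180 to 53510 at 10 wk, and 37970 to 50900 and 36420 to 47010 at 24 wk. Averaged over ages, 3 of these 6 genes were lower and 1 was higher in SHRs in the CVLM. In order of age, the CVLM medians of the sum in WKY rats were 66610, 55300, 52370, 42970 and 39860 CPM. Those in SHRs were 55930, 50580, 47080, 41670 and 41760 CPM. WKY rats thus had the higher median at every age except 24 wk. Of the ages at which Hsd11b1 did not overlap between strains, 10 wk had the higher median in WKY rats, whereas 24 wk had it in SHRs. The part of cell composition in the Hsd11b1 difference was not tested.

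Fkbp5 encodes a co-chaperone that lowers the hormone affinity of the glucocorticoid receptor and that the receptor itself induces. It was lower in SHRs at 8 wk in the NTS and the RVLM. In the NTS, WKY rats had 6.58, 12.5, 15.9, 15.9 and 7.46 CPM and SHRs 4.17, 5.35, 2.17, 1.96 and 6.32. Every SHR was below every WKY rat, where the strains were apart, up or down, for 3.89% of genes. The lowest WKY rat was close to the highest SHR in Fkbp5. The log2 fold change was -1.53 (SE 0.41, adjusted p = 0.0174, where 5.79% of genes were called). Beside it, the summed level of 6 medulla marker genes in these libraries was 208.7 to 271.8 CPM in WKY rats and 129.8 to 205.9 in SHRs, which did not overlap either. All 6 of these marker differences were negative, with a median log2 fold change of -0.68, and 1 was called. In the RVLM at 8 wk, the 3 medulla genes tested were all positive, with a median of 0.59 and 0 called. The sums overlapped there, with 18.3 to 98.6 CPM in WKY rats and 37.8 to 251.5 in SHRs. Their part in the Fkbp5 difference was not tested.

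In the RVLM at 8 wk, Fkbp5 was at 12.4, 15.5, 20.4, 13.3 and 8.62 CPM in WKY rats and at 6.87, 5.54, 5.40, 9.27 and 7.68 in SHRs. The groups overlapped by 1 rat of each strain, and the log2 fold change was -1.01 (SE 0.32, adjusted p = 0.0405). This RVLM call was lost in 7 of 46 fits that left out a rat. The highest WKY value was in the library that stood apart, and without that rat the difference was -0.85 (adjusted p = 0.147). Neither the NTS nor the RVLM call of Fkbp5 held with the name number as a term (adjusted p = 0.195 and 0.240, log2 fold changes -1.24 and -0.87). With 8 wk fitted alone, both were lost as well (0.0622 and 0.0628). In the CVLM the value at 8 wk was -0.21 and not called. Averaged over ages, Fkbp5 had log2 fold changes of -0.04, -0.02 and -0.25 in the NTS, CVLM and RVLM, none of them called by edgeR, by DESeq2 or at an unadjusted p under 0.05.

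At the later ages no strain difference of Fkbp5 was called, and that at 10 wk in the RVLM had the same sign as at 8 wk (-0.51, SE 0.33). In the NTS at 10 wk, the SHRs had 6.81, 20.8, 15.5, 11.3 and 16.9 CPM of Fkbp5, where the WKY rats had 5.27, 12.1, 7.45 and 6.75. Within SHRs of the NTS, Fkbp5 changed over ages (adjusted p = 0.00974), and 10 wk was above 8 wk by 1.82 on the log2 scale (SE 0.40, adjusted p = 0.00263), where 27.1% of genes were called. All libraries of 10 wk and none of the SHR libraries of 8 wk have names that end in 2, so that age and number cannot be told apart in this comparison. In the test of the strain difference at 1 age against the mean of the other ages, edgeR called 0 of 120 values. An unadjusted p under 0.05 was found for 20, where 16605 of 203060 values over all genes had one. DESeq2 called 2, and its share over all genes is not given here. These 2 were at 8 wk, Fkbp5 in the NTS (-1.85, adjusted p = 0.0242 by DESeq2 and 0.0895 by edgeR) and Tsc22d3 in the CVLM (-0.53, adjusted p = 0.0457 and 0.0866). Few genes passed this test at all, with 0.0508% of the NTS genes at 10 wk, 0.656% and 0.0373% of the CVLM genes at 8 and 24 wk, 0.0149% of the RVLM genes at 10 wk and 0.00746% at 12 and 24 wk, and 0 at the other ages.

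Errfi1 encodes a feedback inhibitor of the epidermal growth factor receptor. Its averaged log2 fold change was negative in all regions and called in the RVLM. In the RVLM, WKY rats ran from 33.5 to 72.3 CPM with a median of 58.3 (mean 55.8 ± 12.3, n = 18) and SHRs from 25.7 to 85.3 with a median of 43.9 (46.6 ± 12.1, n = 28), and the ranges overlapped. For the NTS, CVLM and RVLM, the averaged log2 fold changes were -0.18 (SE 0.087), -0.23 (0.080) and -0.27 (0.088), with adjusted p values of 0.211, 0.0567 and 0.0433. The RVLM call was lost in 17 of 46 fits that left out a rat, with a highest adjusted p of 0.0832.

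At 16 wk Errfi1 separated the strains in both ventrolateral regions, and whether it was called depended on the fit. In the CVLM, WKY rats had 67.6, 64.4 and 61.6 CPM and SHRs ran from 41.3 to 53.9 with a median of 44.2. In the RVLM, WKY rats had 67.7, 68.6 and 47.1 and SHRs ran from 37.2 to 44.4 with a median of 39.6. No SHR reached a WKY rat in either region, where 5.85% and 4.18% of genes did not overlap at this age. The log2 fold changes were -0.50 (SE 0.183, adjusted p = 0.230) and -0.59 (SE 0.201, adjusted p = 0.211), not called. With each age fitted alone, the CVLM value was called (-0.51, adjusted p = 0.0179). Without the libraries of number 2 outside 10 wk, the RVLM value was called (-0.61, adjusted p = 0.0469). In the CVLM at 8 wk, Errfi1 was at 45.8, 41.2, 68.0, 74.4 and 61.1 CPM in WKY rats and at 23.5, 51.0, 29.3, 51.0 and 45.0 in SHRs. The 3 high WKY values are those of libraries with number 2. That difference of -0.54 (SE 0.167) was called (adjusted p = 0.0378), and with the name number as a term it was -0.21 (adjusted p = 0.840). Without the 2 libraries whose age labels conflict it was -0.57 and not called (adjusted p = 0.0766).

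Sgk1 encodes a kinase that raises the number of sodium channels and transporters at the cell surface and that both receptors induce. The study named this gene from the same samples, so that its values are not independent evidence. At 10 wk in the NTS, the SHRs had 291, 287, 82.4, 164 and 382 CPM, and the WKY rats 87.9, 115, 71.2 and 119. In the CVLM, the same rats had 280.2, 391, 103, 211 and 571 and 107, 109.7, 78.7 and 201, and in the RVLM 289.6, 369, 119, 214 and 546 and 91.2, 96.2, 79.1 and 204. In each region SHR replicate 5 was highest and SHR replicate 3 lay among the WKY rats. The log2 fold changes were 1.29, 1.33 and 1.39 (SE 0.41, 0.44 and 0.44) in the NTS, CVLM and RVLM, and the adjusted p values 0.0605, 0.105 and 0.114 with edgeR. DESeq2 called all 3 (adjusted p = 0.0208, 0.0405 and 0.0344), and no other setting with every rat did. Of the 46 fits that left out 1 rat, edgeR called Sgk1 in 4, 1 and 2, and in each region without SHR replicate 3 of 10 wk (1.51, 1.55 and 1.59, adjusted p = 0.0251, 0.0345 and 0.0485). Since the same rats gave all 3 regions, the 3 values are not separate replications.

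At 16 wk the difference of Sgk1 had the opposite sign. In the NTS, the 3 WKY rats had 263, 205 and 70.0 CPM, and SHRs ran from 75.2 to 192 with a median of 85.8. In the CVLM, they had 326, 339.5 and 94.9, against 99.9 to 202 with a median of 120.1, and in the RVLM 333, 291 and 105, against 97.7 to 201 with a median of 111. WKY replicates 1 and 2 were above every SHR and WKY replicate 3 was near the lowest SHR in all regions. The log2 fold changes were -0.78, -0.96 and -0.95 (SE 0.41, 0.43 and 0.44), none called (lowest adjusted p = 0.532, in the CVLM). Neither 10 wk nor 16 wk was called against the mean of the other ages, where 0.0512% of all values were called, and the 6 values of Sgk1 at these ages all had an unadjusted p under 0.05.

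**Figure D3:**
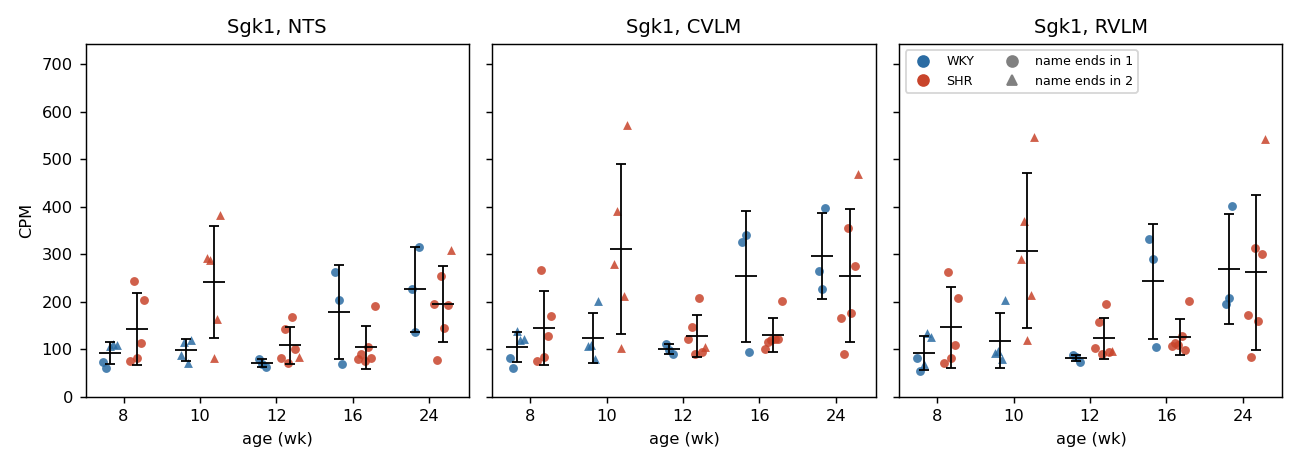
Sgk1 in CPM (vertical axis from 0) by age in wk in the 3 regions, in WKY rats (blue) and SHRs (red). Each point is 1 rat, triangles are libraries whose names end in 2, and black bars are the mean and SD. At 10 wk, 4 of the 5 SHRs lie at or above 164 in each region, and at 16 wk 2 of the 3 WKY rats lie at or above 205 in each region.

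At 8 and 12 wk SHRs were above WKY rats in mean Sgk1 in every region, with log2 fold changes of 0.63, 0.47 and 0.65 at 8 wk and 0.62, 0.35 and 0.59 at 12 wk. In the RVLM at 12 wk, the WKY rats (87.8, 83.1 and 74.2 CPM) lay below all SHRs (90.9 to 196, median 99.5), where 4.30% of genes did not overlap, and the adjusted p was 0.999. At 24 wk the values were -0.21, -0.22 and -0.03. The median standard error over all genes at the 5 ages was 0.18 to 0.24, and that of Sgk1 was 0.38 to 0.47. Rats of 1 group differed widely in Sgk1, as the SHRs of 24 wk, which ran from 84.0 to 542 CPM in the RVLM.

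Tsc22d3, which encodes GILZ, a leucine zipper protein that carries part of the anti-inflammatory action of glucocorticoids, had no strain difference called at any age, with 2 of 15 values at an unadjusted p under 0.05 and 1 called by DESeq2 (CVLM at 8 wk, log2 fold change -0.45, adjusted p = 0.0363 by DESeq2 and 0.0506 by edgeR). The latter was called with RLE normalization and with filterByExpr (0.0468 and 0.0497). Its averaged log2 fold changes were -0.07, -0.03 and -0.05 (SE 0.089, 0.071 and 0.087) in the NTS, CVLM and RVLM. At 10 wk in the NTS, WKY rats had 739.8, 698, 607 and 635 CPM and SHRs 591, 528, 393, 509 and 584, so that the strains did not overlap, which held for 7.68% of genes. That log2 fold change was -0.36 (adjusted p = 0.327).

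Pdk4, a kinase that turns off pyruvate dehydrogenase and saves glucose in fasting, and Zbtb16, a zinc finger transcription factor also called PLZF, were low in all regions. In the NTS, CVLM and RVLM, Pdk4 ran from 2.72 to 11.1, 5.07 to 17.3 and 1.71 to 13.5 CPM, and Zbtb16 from 0.82 to 8.52, 1.07 to 8.17 and 0.85 to 9.69. No strain difference of either gene was called by edgeR or DESeq2, and 2 of 15 values at single ages had an unadjusted p under 0.05 in each gene. The largest difference of Zbtb16 was at 12 wk in the CVLM, where WKY rats had 1.19, 1.53 and 2.25 CPM and SHRs ran from 1.07 to 8.17 with a median of 3.11 (log2 fold change 1.15, SE 0.46, adjusted p = 0.254). The lowest SHR was below all WKY rats and the other 5 were above them. SHR replicate 5 of 10 wk, the rat with the most Sgk1, also had the most Pdk4 in each region, with 11.1, 17.3 and 13.5 CPM. SHR replicate 1 of 12 wk had the most Zbtb16 in each region, with 8.52, 8.17 and 9.69 CPM.

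Over ages, calls were most frequent for Sgk1, Tsc22d3 and Errfi1. In the F test across the 5 ages within a strain, 18 of the 48 values of 8 genes, 3 regions and 2 strains were called, where 13.8% of genes were called in WKY rats and 17.6% in SHRs over the regions (12.5%, 22.2% and 6.79%, and 18.7%, 20.0% and 14.1%, for the NTS, CVLM and RVLM). Sgk1 was called in all 6 combinations of region and strain, and Tsc22d3 in 5. The call of Tsc22d3 in the NTS of SHRs was missed (adjusted p = 0.0638). Errfi1 was called in 4, Fkbp5, Nr3c2 and Pdk4 in 1 each, and Hsd11b1 and Zbtb16 in 0. With the name number as a term, 0 of the 18 were kept.

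The number itself carried a difference in Tsc22d3 and Errfi1. Libraries with number 2 were higher in Tsc22d3 by 0.67, 0.58 and 0.56 on the log2 scale (SE 0.129, 0.105 and 0.142, adjusted p = 2.1e-04, 1.5e-04 and 0.00528) and in Errfi1 by 0.47, 0.49 and 0.45 (SE 0.154, 0.135 and 0.153, adjusted p = 0.0227, 0.00751 and 0.0374). The other 6 members were not called, and over all genes 25.6%, 21.6% and 16.4% were called in the NTS, CVLM and RVLM. Only 3 groups hold both numbers, which with 3 regions gives 9 comparisons within a group. In 7 of the 9 for Tsc22d3 and in 6 of the 9 for Errfi1, all libraries with number 2 were above all with number 1. This held in 5 for Sgk1, 4 for Pdk4, 2 each for Fkbp5 and Hsd11b1, 1 for Zbtb16 and 0 for Nr3c2. In the SHRs of 12 and 24 wk, number 2 is 1 rat each, and the same rats were read in 3 regions. The share over all genes is not given here, so these counts are not shown to be particular to the members.

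The CVLM of the WKY rats of 8 wk shows it for Tsc22d3. The 2 libraries with number 1 had 409 and 311 CPM and the 3 with number 2 had 664, 592 and 615. At 24 wk, SHR replicate 6, whose libraries have number 2, had 764, 621 and 932 CPM in the NTS, CVLM and RVLM, and the other 5 SHRs reached at most 379.5, 478 and 667. Rats of 10 wk had 393 to 739.8 CPM in the NTS. In SHRs, Tsc22d3 was higher at 10 wk than at 8 wk by 0.51, 0.82 and 0.63 (SE 0.18, 0.15 and 0.18) and Errfi1 by 0.67, 0.90 and 0.70 (SE 0.18, 0.17 and 0.18), all called, where 27.1%, 25.2% and 22.0% of genes were. Sgk1 was higher at 10 wk in the CVLM of SHRs (1.11, SE 0.40, adjusted p = 0.0407). The steps at 10 wk in these genes and the number cannot be told apart.

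Of the calls against 8 wk, only the following lay outside 10 wk. In the CVLM of WKY rats, Sgk1 was at 81.5, 61.2, 137.55, 120.0 and 122 CPM at 8 wk and at 265, 226 and 398 at 24 wk, without overlap. The share of genes without overlap between these ages is not given here. The 3 higher values of 8 wk are in libraries with number 2, and all WKY libraries of 24 wk have number 1. The log2 fold change of Sgk1 was 1.50 (SE 0.45, adjusted p = 0.0246), where 13.7% of genes were called. In the CVLM of SHRs, the same comparison was 0.82 (SE 0.39, adjusted p = 0.597), and the groups overlapped. The difference between the strains in this change was not tested by itself.

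Levels between regions differed for every member in at least 1 pair of regions. To compare regions, the libraries of all regions were scaled together and fitted with the rat as a block, and 20 of the 24 values were called, where 65.9%, 72.7% and 54.0% of genes were called between the NTS and CVLM, the NTS and RVLM, and the CVLM and RVLM. In size, Hsd11b1 had the largest difference among the members in both pairs with the RVLM, and Pdk4 between the NTS and CVLM (-0.82, against -0.71 for Hsd11b1). Its means in the NTS, CVLM and RVLM were 35.4 ± 9.27, 56.8 ± 10.9 and 135 ± 33.2 CPM (SD, n = 46 rats). All 46 rats had more in the RVLM than in either other region, and 45 had more in the CVLM than in the NTS. The log2 difference between NTS and RVLM was -1.94 (SE 0.052, adjusted p = 1.1e-48).

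The RVLM was the highest region for most members. Tsc22d3 was lower in the NTS than in the RVLM in 46 of 46 rats (log2 difference -0.81, SE 0.041), Nr3c2 in 45 (-0.83, SE 0.082) and Fkbp5 in 41 (-0.72, SE 0.096). Zbtb16 was also highest there, with 31 of 46 rats above the NTS (-0.27, SE 0.097). Pdk4 was highest in the CVLM, at 8.47 ± 2.45 CPM against 4.86 ± 1.93 in the NTS and 6.22 ± 2.66 in the RVLM. Sgk1 and Errfi1 were lower in the NTS than in the other regions, in 44 and 45 of 46 rats against the CVLM, and were not called between the CVLM and RVLM (log2 differences 0.04, SE 0.037, and 0.07, SE 0.038, adjusted p = 0.389 and 0.133). No member had a strain difference that was called different between regions, averaged over ages, where 0.449%, 1.82% and 0.320% of genes were. Of these 24 values, 0 had an unadjusted p under 0.05, and of the 120 values at single ages 0 were called and 8 had one.

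From rat to rat, Sgk1 was the member that the regions of a rat shared most. Log2 CPM was centred on the mean of each group of strain and age, so that the correlation over 46 rats does not hold the differences between groups, and p values came from 100000 permutations within groups. For Sgk1, Pearson's r was 0.93 between the NTS and CVLM, 0.91 between the NTS and RVLM and 0.95 between the CVLM and RVLM (Spearman's rho 0.90, 0.88 and 0.91). The p value was 1.0e-05 each time, the smallest that these permutations can give (8.0e-05 after Benjamini-Hochberg adjustment over 24 relations). Without the 2 rats farthest from the median, r was 0.91, 0.89 and 0.94. Within the 32 rats of number 1, r was 0.93, 0.94 and 0.97, and within the 12 rats of number 2 that share a group it was 0.93, 0.84 and 0.90.

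**Figure D4:**
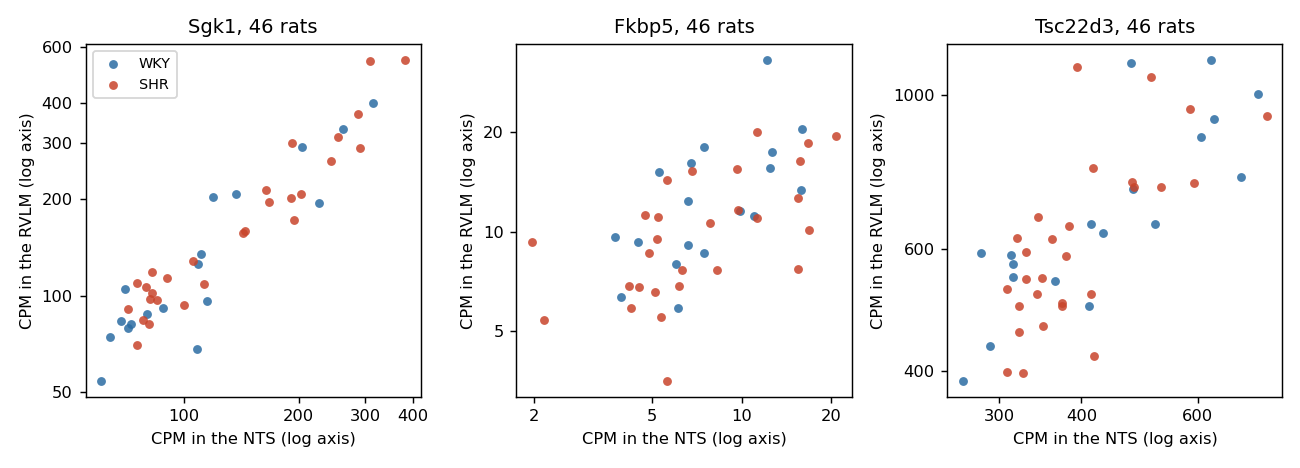
CPM in the NTS (horizontal, log axis) and in the RVLM (vertical, log axis) of the same rat for Sgk1, Fkbp5 and Tsc22d3, with 46 rats in each panel (blue WKY, red SHR). For Sgk1 the points lie close to a line, with r of 0.91 after centring on groups, and for Fkbp5 and Tsc22d3 they scatter more, with r of 0.48 and 0.55.

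In all, 18 of the 24 relations between regions were called, all positive. The share over all genes is not given here, so this count is not shown to be particular to the members. Errfi1 followed Sgk1, with r of 0.77, 0.60 and 0.57 (rho 0.76, 0.54 and 0.59, adjusted p = 9.6e-05, 0.00298 and 0.00552, number 1 alone 0.65, 0.63 and 0.53). Tsc22d3 had r of 0.69, 0.55 and 0.53 (rho 0.63, 0.44 and 0.49), with 0.66, 0.43 and 0.48 in rats of number 1 and 0.16, 0.06 and -0.09 in those of number 2. Zbtb16 was called in all 3 pairs of regions (r 0.47, 0.57 and 0.44), and Fkbp5 and Pdk4 in the 2 pairs with the NTS (r 0.50 and 0.48, and 0.47 and 0.60). Hsd11b1 was called between the CVLM and RVLM (r 0.45, rho 0.46, adjusted p = 0.0108, number 1 alone 0.49, number 2 alone -0.16), and Nr3c2 between the NTS and CVLM (r 0.42, rho 0.36, adjusted p = 0.0320, number 1 alone 0.66, number 2 alone 0.31). Libraries of a rat share its number, whose part in the correlations is shown by the values within each number.

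Within a region, Sgk1 moved with Pdk4 and Errfi1. Over the 28 pairs of members in 3 regions, 14 of 84 relations were called, 13 of them positive. The share over pairs of all genes is not given here, so this count is not shown to be particular to the members. Sgk1 and Pdk4 had r of 0.68, 0.54 and 0.62 in the NTS, CVLM and RVLM (rho 0.65, 0.39 and 0.63, adjusted p = 8.4e-04, 0.0247 and 8.4e-04), and without the 2 farthest rats 0.61, 0.50 and 0.62. By Spearman's rho the CVLM relation was not called (adjusted p = 0.112). Sgk1 and Errfi1 had r of 0.62, 0.65 and 0.53 (rho 0.65, 0.64 and 0.54, adjusted p = 8.4e-04, 8.4e-04 and 0.00803), and without the 2 farthest rats 0.63, 0.67 and 0.51.

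By name number these relations kept their sign and differed in size. For Sgk1 and Pdk4, r was 0.55, 0.45 and 0.45 in rats of number 1 and 0.83, 0.83 and 0.86 in rats of number 2. For Sgk1 and Errfi1, it was 0.54, 0.48 and 0.41, and 0.77, 0.89 and 0.66. In rats of number 1 alone none of these 6 relations had an adjusted p under 0.05 (0.0889 to 0.323). The targets were not a single block, as Sgk1 and Fkbp5 had r of -0.10, 0.14 and -0.10.

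**Figure D5:**
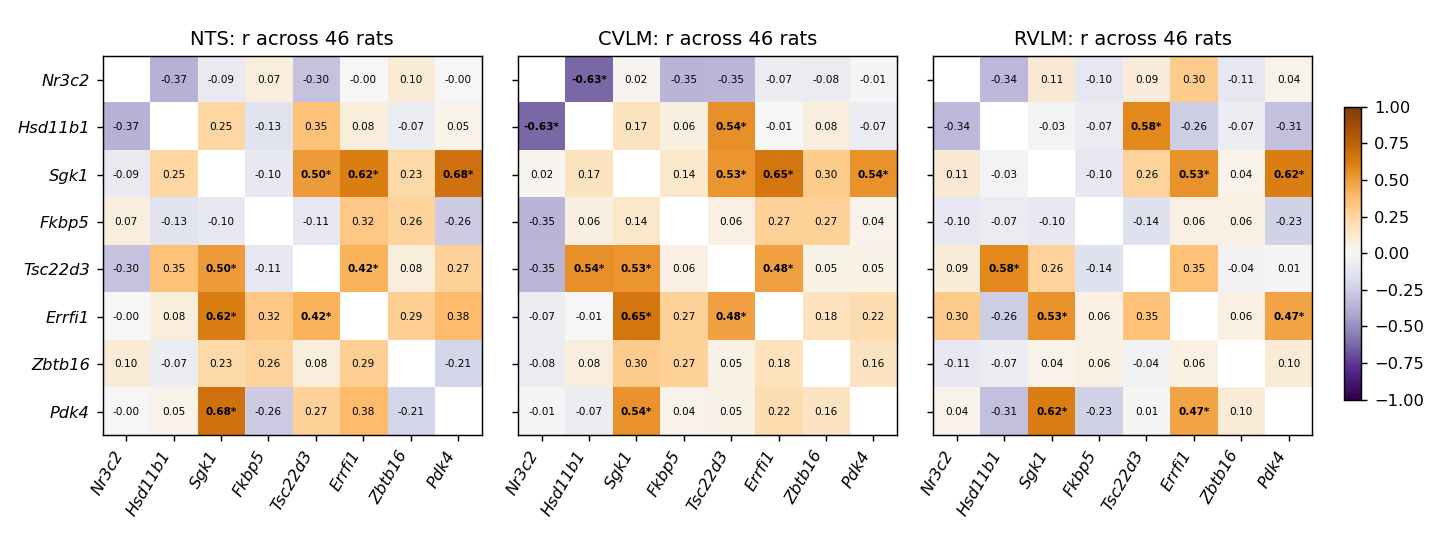
Pearson's r between members across 46 rats within the NTS, CVLM and RVLM, after centring log2 CPM on each group of strain and age. Stars mark an adjusted p under 0.05. Sgk1 with Pdk4 and Sgk1 with Errfi1 are starred in each region, and Nr3c2 with Hsd11b1 in the CVLM (-0.63) is the starred negative value.

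Tsc22d3 and Hsd11b1 were related in the ventrolateral regions, with r of 0.54 in the CVLM and 0.58 in the RVLM (rho 0.55 and 0.61, adjusted p = 0.00693 and 0.00235, without the 2 farthest 0.55 and 0.59, number 1 alone 0.53 and 0.79, number 2 alone 0.32 and 0.07). Nr3c2 and Hsd11b1 were opposed in the CVLM, with r of -0.63 (rho -0.55, adjusted p = 0.00432, without the 2 farthest -0.55, number 1 alone -0.62, number 2 alone -0.43). In the NTS and RVLM this pair was not called. Sgk1 and Tsc22d3 had r of 0.50 in the NTS and 0.53 in the CVLM (rho 0.45 and 0.50, adjusted p = 0.0158 and 0.00432, without the 2 farthest 0.43 and 0.51, number 1 alone 0.38 and 0.31, number 2 alone 0.68 and 0.76). Tsc22d3 and Errfi1 had r of 0.42 and 0.48 in these regions (rho 0.40 and 0.45, adjusted p = 0.0291 and 0.0224), which was 0.29 and 0.34 without the 2 farthest rats and 0.15 and -0.13 in rats of number 1, against 0.38 and 0.81 in those of number 2. By Spearman's rho the NTS relation was not called (adjusted p = 0.0568). Errfi1 and Pdk4 in the RVLM had r of 0.47 (rho 0.51, adjusted p = 0.0340, without the 2 farthest 0.47, number 1 alone 0.28, number 2 alone 0.70).

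The genes most like Sgk1 and those most like Fkbp5 were different sets. Over 13115 genes tested in all regions, the mean r with Sgk1 over the 3 regions was highest for Gpd1 (0.67), Pdk4 (0.61), Plekhf1 (0.61), Nfkbia (0.61) and Errfi1 (0.60), followed by Phactr3, Nt5e, Tob2, Eva1a and Sult1a1. Gpd1 encodes a glycerol phosphate dehydrogenase and Nfkbia an inhibitor of NF-κB. Tsc22d3 ranked at place 18 and Fkbp5 at 7416. Among the 10 genes most like Fkbp5 were Prkaca (0.87), Gpc1 (0.85) and Spire2 (0.85), and with lower r Arl8a, Ctbp1, Fxr2, St3gal5 and Gsr, and the next member, Errfi1, ranked at place 2747. These likenesses are descriptions over 46 rats that share libraries within a region.

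Fkbp5 moved with broad features of the libraries. Its r with the first principal component of group-centred expression, which held 26.4%, 27.9% and 23.3% of the variance in the NTS, CVLM and RVLM, was 0.77, 0.78 and 0.78, and that of Sgk1 was at most 0.08 in size. Over all genes tested, 11.2%, 9.79% and 9.52% had an r over 0.7 in size with this component. Of the other members, Errfi1 was called with it in the NTS (r 0.46) and RVLM (r 0.40) and Nr3c2 in the CVLM (r -0.51), each with Spearman's rho not called. At 8 wk, the 10 genes most like Fkbp5 were lower in SHRs in all regions, with medians of -1.23, -0.41 and -1.20. Of the 10, 2, 0 and 3 were called, where 5.79%, 7.64% and 9.78% of all genes were. At later ages their median had the opposite sign to Fkbp5 in the CVLM at 12 wk (-0.21 and 0.31) and 24 wk (0.47 and -0.29). It was also opposite in the NTS at 16 wk (-0.01 and 0.15), and elsewhere the sign was the same. With 4 clock output genes (Dbp, Nr1d1, Per2 and Bhlhe41), Fkbp5 had r of 0.71, 0.74 and 0.64 (rho 0.73, 0.72 and 0.62, adjusted p = 3.6e-04, 3.6e-04 and 5.4e-04 over 216 relations with marker lists, of which 11 were called). Without the 2 farthest rats this r was 0.69, 0.70 and 0.61. Within number 1 it was 0.81, 0.76 and 0.72, and within number 2 it was 0.39, 0.75 and 0.48. The 11 called relations with marker lists are not all described. Their share over all genes is not given here, so the count is not shown to be particular to the members.

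Other marker lists moved with Tsc22d3 and Hsd11b1. Tsc22d3 had r of 0.77, 0.75 and 0.71 with the summed neuron markers (rho 0.74, 0.69 and 0.73, adjusted p = 3.6e-04, 3.6e-04 and 5.4e-04, without the 2 farthest 0.73, 0.68 and 0.78, number 1 alone 0.84, 0.59 and 0.91, number 2 alone 0.61, 0.67 and 0.96). Hsd11b1 had r of 0.74 with the oligodendrocyte markers in the NTS (rho 0.72, adjusted p = 3.6e-04, without the 2 farthest 0.73, number 1 alone 0.64, number 2 alone 0.90) and 0.22 in the CVLM, where its strain difference was largest. Fkbp5 had r of -0.64 with the oligodendrocyte markers in the RVLM (rho -0.69, adjusted p = 3.6e-04, without the 2 farthest -0.61, number 1 alone -0.74, number 2 alone -0.61). No marker list was called with Sgk1. Between strains and averaged over ages, 2 of 4 endothelial genes were higher, 3 of 5 choroid plexus genes lower and 1 of 6 oligodendrocyte genes each higher and lower in SHRs in the NTS. In the CVLM, 1 of 2 choroid plexus genes was higher and 1 of 4 microglial genes lower, beside the oligodendrocyte genes above. In the RVLM, 1 endothelial, 1 astrocyte and 1 clock output gene were higher and 2 oligodendrocyte genes lower. None of the neuron, immediate early, fibroblast, medulla and forebrain markers tested was called in this comparison. The choroid plexus sum reached 2005 CPM in a WKY rat of 8 wk and 4581 in one of 12 wk, against at most 5.60 and 7.89 in SHRs of these ages. The part of these lists in the relations was not tested.

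Beyond the members, 60 genes of the pathway were listed, from receptor partners and hormone supply to other induced genes and sodium transport. Of these, 51, 50 and 51 were tested in the NTS, CVLM and RVLM. Averaged over ages, 2 were higher and 3 lower in SHRs in the NTS, 0 and 7 in the CVLM, and 1 and 6 in the RVLM, which was 9.8%, 14% and 13.7% of those tested, where 11.2%, 12.3% and 10.8% of all genes were called. By group, the receptor complex and its cofactors had 1, 2 and 2 of 10 genes lower. Hormone supply and the stress axis had 1 of 9 higher, 1 of 7 lower and 1 of 8 higher. The other induced genes had 1 of 22, 2 of 23 and 2 of 23 lower, and sodium transport with the SGK family had 1 higher and 1 lower, 2 lower and 2 lower of 10.

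Among the induced genes, Txnip, which encodes a thioredoxin-binding protein that limits glucose uptake, was lower in SHRs in every region. In the CVLM, WKY rats ran from 28.3 to 60.3 CPM (mean 41.9 ± 7.57, n = 18) and SHRs from 13.2 to 26.8 (19.4 ± 3.28, n = 28), without overlap over all ages. The log2 fold changes of Txnip in NTS, CVLM and RVLM were -0.82, -1.13 and -1.07 (SE 0.067, 0.065 and 0.072, adjusted p = 3.7e-13, 4.5e-18 and 1.1e-15). The metallothionein gene Mt2A was lower in the CVLM (-0.73, SE 0.132, adjusted p = 4.5e-05) and the RVLM (-0.65, SE 0.161, adjusted p = 0.00413).

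Of the receptor partners, Hsp90aa1, the chaperone that holds unbound receptor, was lower in SHRs in every region (log2 fold changes -0.39, -0.42 and -0.58, adjusted p = 2.8e-05, 1.5e-08 and 7.4e-06). Its highest RVLM value, 5916 CPM, was in the WKY library that stood apart, and the median of the WKY libraries was 2244. Without the library that stood apart, the RVLM still had 1 pathway gene higher and 6 lower.

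In the stress axis, Crhr1, the receptor of corticotropin-releasing hormone, was higher in SHRs. In the RVLM it was at 3.32 ± 1.16 CPM in WKY rats and 6.68 ± 1.84 in SHRs (log2 fold change 0.97, SE 0.128, adjusted p = 1.5e-07), with ranges of 1.46 to 6.19 and 2.49 to 11.1. In the NTS its log2 fold change was 0.56 (SE 0.132, adjusted p = 0.00226), and in the CVLM it was 0.21 and not called (adjusted p = 0.222). Avpr1a, a vasopressin receptor gene, was lower in the CVLM (-0.31, adjusted p = 0.00719).

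Substrates and relatives of the SGK1 kinase also differed. Ndrg1, which SGK1 phosphorylates, was lower in the CVLM and RVLM (-0.34 in each, adjusted p = 3.2e-07 and 3.9e-05). Sgk3 was lower in the same regions (-0.32 and -0.29, adjusted p = 0.00315 and 0.0375). In the NTS, Ndrg2 was lower (-0.16, adjusted p = 0.0114) and Sgk2 higher (0.53, adjusted p = 0.0163), the latter at 1.50 and 2.05 CPM on average in WKY rats and SHRs. Hsp90aa1 and Mt2A belong to families with near-identical copies, among which the counting could divide reads, and differences of sequence between each strain and the reference genome could change mapping, which was not tested.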

How the data were processed

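RNA from punches of 3 brainstem regions of 46 rats was sequenced. Per the labels and methods, the authors mapped reads to the rat genome rn6 and deposited 1 table of RSEM expected counts per region, not normalized. Their methods also name a batch adjustment with ComBat_seq, and whether it is in these tables is not given in the sources used here (4.88% to 5.02% of values are not whole). Of the CVLM libraries, 2 with conflicting age labels were placed at 8 wk by title. Members and lists were chosen with earlier results of these data known.

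Counts were rounded, and genes were kept at a largest rlog of 3.5 or more. Analyses used R 4.3.3, edgeR 4.0.16 (TMM, quasi-likelihood test with Benjamini-Hochberg adjustment, 10 strain and age groups in 1 fit per region), limma 3.58.1 and DESeq2 1.42.0. Regions were compared with the rat as a block, and correlations used log2 CPM with a prior count of 2. Tests were tried on simulated data. No pair of the 270 library pairs within groups was a repeat (lowest chi-square per gene 5.07). Alternatives were other normalizations, filters and tools, left-out rats, the replicate block and the name number as a term. Members, 60 pathway genes called averaged over ages (at most 12 by adjusted p) and the 10 genes most like Sgk1 and Fkbp5 are named, except a few genes not reported here.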

Additional observations from a re-analysis of the deposited data

Results flagged for a closer look

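Single rats far from the others of their group were looked for in the 8 members, in the 168 groups of 4 to 6 rats by Dixon's rule, which by chance marks about 1 in 20 groups. It marked 13, from 7 rats.

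Sgk1 gave 4 of them. SHR replicate 6 of 16 wk was far above the other SHRs in the NTS, CVLM and RVLM, with 192, 202 and 201 CPM, and WKY replicate 4 of 10 wk was above its group in the RVLM with 204 CPM. Tsc22d3 gave 4. SHR replicate 6 of 24 wk stood out in the NTS with 764 CPM and in the CVLM with 621 CPM, and its library names end in 2 where those of the other 5 SHRs end in 1. SHR replicate 6 of 16 wk had 413 CPM of Tsc22d3 in the NTS, and WKY replicate 4 of 10 wk had 860.4 CPM in the CVLM. These last 2 rats are the ones that stood out in Sgk1.

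For Fkbp5, SHR replicate 2 of 24 wk had 11.2 CPM in the NTS and WKY replicate 2 of 10 wk had 33.0 CPM in the RVLM. In the CVLM of 8 wk, WKY replicate 1 stood above its group in Nr3c2 with 17.3 CPM and in Zbtb16 with 4.03 CPM. SHR replicate 1 of 10 wk had 45.8 CPM of Hsd11b1 in the NTS.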

How the results depend on the processing

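Of the strain differences averaged over ages, those of Hsd11b1 in the CVLM and RVLM stayed called under every other setting at the same threshold, and in all 46 fits that left out 1 rat. Errfi1 in the RVLM was lost with filterByExpr (adjusted p = 0.0595) and without a filter (0.0603). The 8 calls at single ages were fewer under several settings. They became 4 without a filter on low counts, 3 with the number that ends the library names as a term, 4 without the libraries of number 2 outside 10 wk and 3 with each age fitted alone, where each fit has fewer samples. The 5 calls at 8 wk were lost under the last 3 of these settings. The change over ages went from 18 calls to 0 with the name number as a term, and the relations between members from 14 to 2 in rats of number 1 alone, which are fewer rats. With the threshold moved to 0.01 and a 2-fold change, 0 calls were left at single ages, 0 averaged over ages, 1 over ages within a strain and 2 between regions. DESeq2 called 2 values of 1 age against the other ages, where edgeR called 0. The cause of these changes was otherwise not tested, and no called value changed its sign.

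With 1 rat left out, calls ran from 2 to 13 at single ages, 2 to 4 averaged over ages, 0 to 2 for 1 age against the others and 11 to 19 for the change over ages. The 13 came without WKY replicate 1 of 8 wk and the 2 without SHR replicate 3 of 8 wk. There were 3 without WKY replicate 3 or 4 of 8 wk, and 5 without WKY replicate 5 of 8 wk, WKY replicate 1 of 24 wk or SHR replicate 2 or 5 of 8 wk. For 1 age against the others, 2 came without WKY replicate 1 and 1 without WKY replicate 2 of 8 wk. The change over ages had 11 calls without SHR replicate 5 of 10 wk. Between regions, the limma fit gave 19 to 21 calls of level and 0 to 2 of the strain difference, with 2 without WKY replicate 1 or 5 of 8 wk and 1 without WKY replicate 4 or SHR replicate 1 of 8 wk.

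The replicate numbers of the labels were not taken as pairing the samples, since only part of the same-numbered pairs of groups correlated. Of 54 such pairs, 32 correlated above 0.1 and 22 correlated best with their own number (r from -0.333 to 0.554). The number of best matches expected by chance is not given here, so these counts do not show that same-numbered rats are unrelated. Every pair correlated above 0.1 in NTS libraries of 12 and 24 wk and CVLM libraries of 10 and 12 wk, where the block changed no call at that age. With the replicate block, 5 values averaged over ages were called, 11 at single ages and 19 over ages. Errfi1, called only in the RVLM without it, was then called in every region averaged over ages (-0.27, -0.30 and -0.37 in NTS, CVLM and RVLM, adjusted p = 0.0369, 0.01 and 9.36e-04). It was also called with the block in the NTS at 8 wk (-0.55, adjusted p = 0.0412) and the RVLM at 16 wk (-0.72, adjusted p = 0.0142), and Tsc22d3 in the CVLM at 8 wk (-0.45, adjusted p = 0.0396). The fit with the limma rat block and the number coefficient were chosen after seeing the data, as was the pathway list without the library apart. At these depths and group sizes, the median standard error of a strain difference at 1 age was 0.18 to 0.24 on the log2 scale, so that differences of that size lay within the error.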
